A study of Mus musculus with 6 samples.

Results

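Cytosolic ribosomal protein genes were followed in keratinocytes of mice in which Lama3 was targeted for deletion in the basal epidermis. The group was defined by name: every protein-coding gene of the deposited count table with a symbol of Rpl or Rps and a number, with an optional letter, together with Rplp0, Rplp1, Rplp2 and Rpsa and without the S6 kinases. Of the 45513 gene identifiers in the table, 81 met this definition, 50 for the large ribosomal subunit and 31 for the small. All mice were on a C57BL/6 background, carried the K14-CreERT transgene per the design text, and were fed tamoxifen in their chow (400 mg per kg). Knockouts, 3 mice, carried Lama3flox/flox, with loxP sites around exons 50 to 53. The 3 control mice are described as Lama3wt/flox in the design text, while their genotype label reads wild type. The keratin 14 promoter directs the recombinase to basal keratinocytes and tamoxifen times its action. Cells in which this promoter was not active would have kept the gene, and which cells of the preparation lost it was not tested. The age and sex of the mice are not in the labels. Messenger RNA was read as paired 100-base sequences, with 1 library from each mouse.

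The cytosolic ribosome is built from a large and a small subunit, each an assembly of ribosomal RNA with many different proteins, and a cell needs these proteins in matched amounts. In mammals most of them come from a single active gene, transcribed at a high rate, with processed and mostly silent copies elsewhere in the genome. Their messenger RNAs are short and begin with a run of pyrimidines, the terminal oligopyrimidine (TOP) motif. Through Larp1 and the kinase mTORC1 this motif sets how well the messages are translated and how long they last, while Myc and RNA polymerase I set the supply of the other ribosome parts. In epidermis, ribosome production is associated with dividing basal cells.

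The labels were first checked against Lama3. It was measured at 141, 142 and 114 CPM (CPM is the count scaled to library size and edgeR's TMM factor) in controls 1 to 3 and at 97.3, 98.9 and 79.2 CPM in knockouts 1 to 3, so no library went against its label. For Lama3 every knockout lay below every control, though 26.5% of all tested genes showed this order. Total counts lay between 20126395 and 28473479. Xist counts mark control 1 and knockouts 1 and 2 as female and the other 3 mice as male. The libraries held signs of cell types other than interfollicular keratinocytes, and several of these moved with the groups. Of 11 T cell markers all 11 fell, with a summed level of 195 to 393 CPM in the controls against 86.7 to 107 CPM in the knockouts. Of 11 hair follicle markers 9 fell (32.8 to 44.9 CPM in the knockouts against 92.7 to 311 CPM). Of 9 neutrophil markers 3 were tested and all 3 rose (154 to 1512 CPM against 7.79 to 35.9 CPM), while the defining genes Ly6g and Elane were at 0 counts in every library. Of 6 melanocyte markers 5 fell, of 9 sebaceous gland markers 5 and of 5 erythroid markers 4. Other lists had smaller shares called. Of 9 Langerhans cell markers 1 rose (Mfge8), 7 were not called and 1 fell, the defining gene Cd207. Cd207 took 28.6 to 124 CPM in the controls against 18.2 to 31.3 CPM in the knockouts. Of 7 fibroblast markers 2 fell. Of 2 endothelial and 3 muscle markers tested 0 were called. Of 7 mast cell and eosinophil markers 1 was tested, Ear2, and it fell. The eosinophil genes Prg2 and Epx were at 0 counts in every library, and Cpa3, Cma1, Mcpt4 and Tpsb2 at 0 to 6 counts. Among all tested genes 18.8% fell and 17.4% rose. Of 20 cell cycle genes 18 fell. Of 10 keratinocyte genes Krt1, Krt10, Dsc1 and Lor, markers of differentiating layers, rose, and Krt15, a basal keratin, fell. The other 5 were not called. They comprised the basal markers Krt5, Krt14 and Trp63 (means of 8174, 4247 and 681 CPM in controls, 7349, 4719 and 701 in knockouts), Dsg1a and Krtdap. The part of these cell types in the values below was not tested. In bulk RNA fewer cells of a type and less RNA per cell cannot be told apart.

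The ribosomal protein genes were lower in the knockouts, on both subunits. Of the 81 genes, 78 had enough counts to be tested, and 41 of them fell while 0 rose at an adjusted p under 0.05 (quasi-likelihood test of edgeR, Benjamini-Hochberg adjusted across the 15513 tested genes, the source of each adjusted p below). This is 52.6% of the tested members. Among all genes tested, 18.8% were called lower and 17.4% higher. The median log2 fold change of knockout over control was -0.63 over the 78 genes, with quartiles at -0.94 and -0.38, against -0.02 over all genes tested. The fold change was below 0 for 74 genes and above 0 for Rps2, Rpl4, Rpl23a and Rpl29. Processed copies held 92.3% of the Rpl23a family's counts, and with them added its log2 fold change was -0.27 (adjusted p = 0.221). In 52 of the 78 genes every knockout library lay below every control library, an order that 26.5% of all tested genes showed. A fall of at least 2-fold with an adjusted p under 0.05 was found for 17 members, against 9.37% of all genes. The direction was shared by other genes with short transcripts. Protein-coding genes outside the group with transcripts under 1000 bases were called lower in 491 of 1032 cases (47.6%), with a median of -0.53. The ribosomal protein genes under 1000 bases were called lower in 34 of 61 cases (55.7%), with a median of -0.70. Coding genes of 1000 to under 2000 bases were lower in 25.7%, with a median of -0.19, and the members of that class in 4 of 13 cases (30.8%), with a median of -0.49. Coding genes of 2000 bases or more were lower in 13.1%, with a median of 0.13, while 3 of the 4 members of that class were called lower, with a median of -0.63. These 4 were placed by annotated length: Rps15a at 5130, Rps20 at 3706, Rpl22 at 2048 and Rpl5 at 2045 bases. Which of their transcripts the cells used was not tested.

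**Figure D1:**
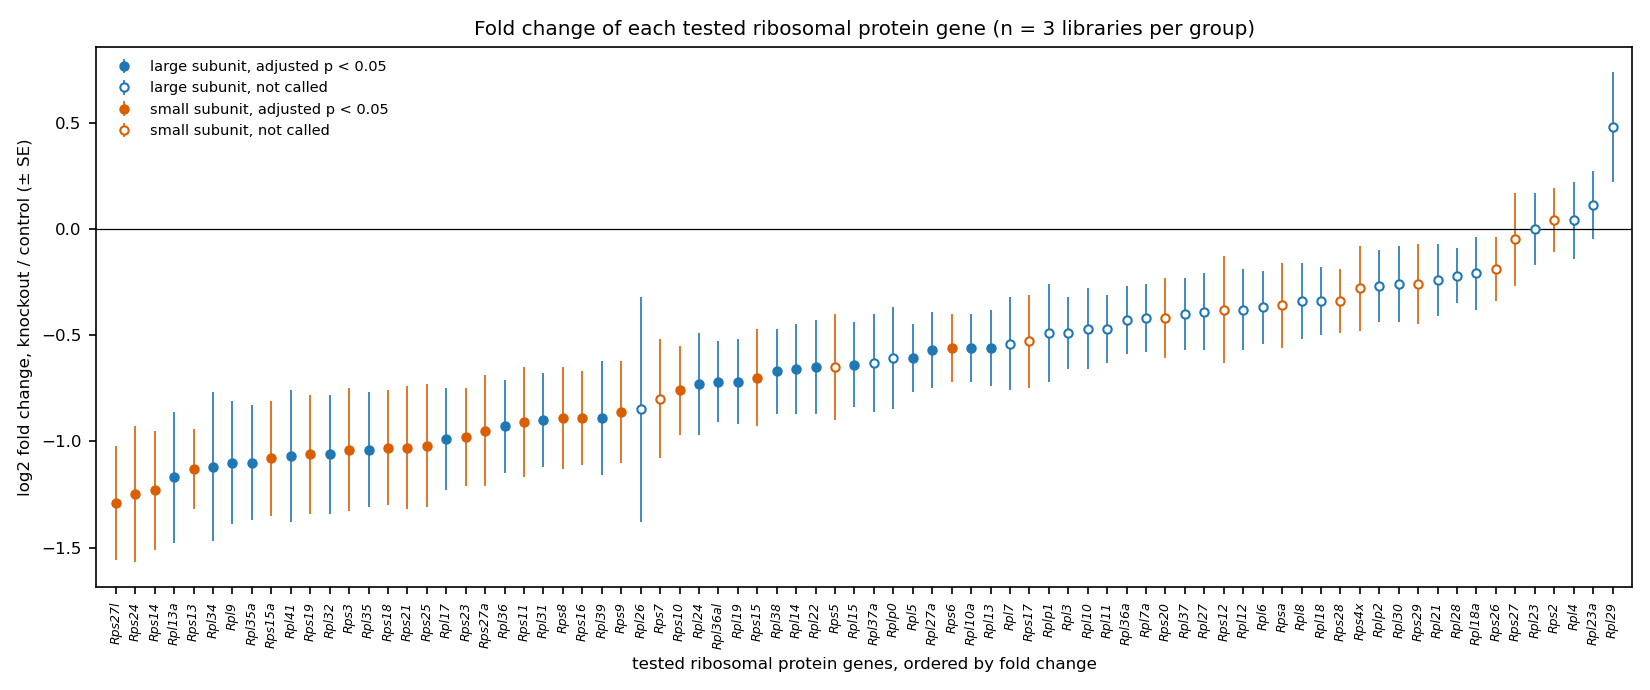
Log2 fold change of knockout over control for each of the 78 tested ribosomal protein genes, ordered from lowest to highest. Bars show 1 SE, computed from the fold change and the edgeR F statistic (3 libraries per group). Filled points passed an adjusted p under 0.05; all 41 of these lie between -1.29 and -0.56.

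The median fall was larger on the small subunit, a difference given here without a test. Of 31 tested small subunit genes 19 fell (61.3%), and the median log2 fold change was -0.86. Of 47 tested large subunit genes 22 fell (46.8%), with a median of -0.56. The falls of 2-fold or more comprised 10 small and 7 large subunit genes. Summed over its genes, the large subunit took 36226 ± 7690 CPM in the controls against 23840 ± 2793 CPM in the knockouts (mean ± SD, n = 3). The small subunit took 30759 ± 7673 CPM in the controls against 17794 ± 2670 CPM in the knockouts. The log2 ratio of large to small summed CPM was 0.21, 0.33 and 0.20 in controls 1 to 3 and 0.46, 0.44 and 0.37 in knockouts 1 to 3, so the groups did not overlap and differed by 0.18. The difference depended on how genes were weighted: with the median log2 level over each subunit's genes in place of the sum it was -0.03.

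Together the 81 genes took 80390, 50238 and 70326 CPM in controls 1, 2 and 3 and 38678, 38289 and 47935 CPM in knockouts 1, 2 and 3. The lowest control stood above the highest knockout, so the groups did not overlap. As a share of all counts these were 7.86%, 5.24% and 7.04% in the controls and 3.78%, 3.85% and 4.76% in the knockouts. The mean summed level was 0.622 times the control mean in the knockouts, a log2 ratio of -0.67. Control 2 and knockout 3 stood nearest to each other. Control 2 was the lowest control for 75 of the 78 tested genes, knockout 3 was the highest knockout for 66, and knockout 3 exceeded control 2 for 23. Among the controls the median SD of a member's log2 CPM was 0.32, against 0.20 over all tested genes, while among the knockouts it was 0.21 in both.

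**Figure D2:**
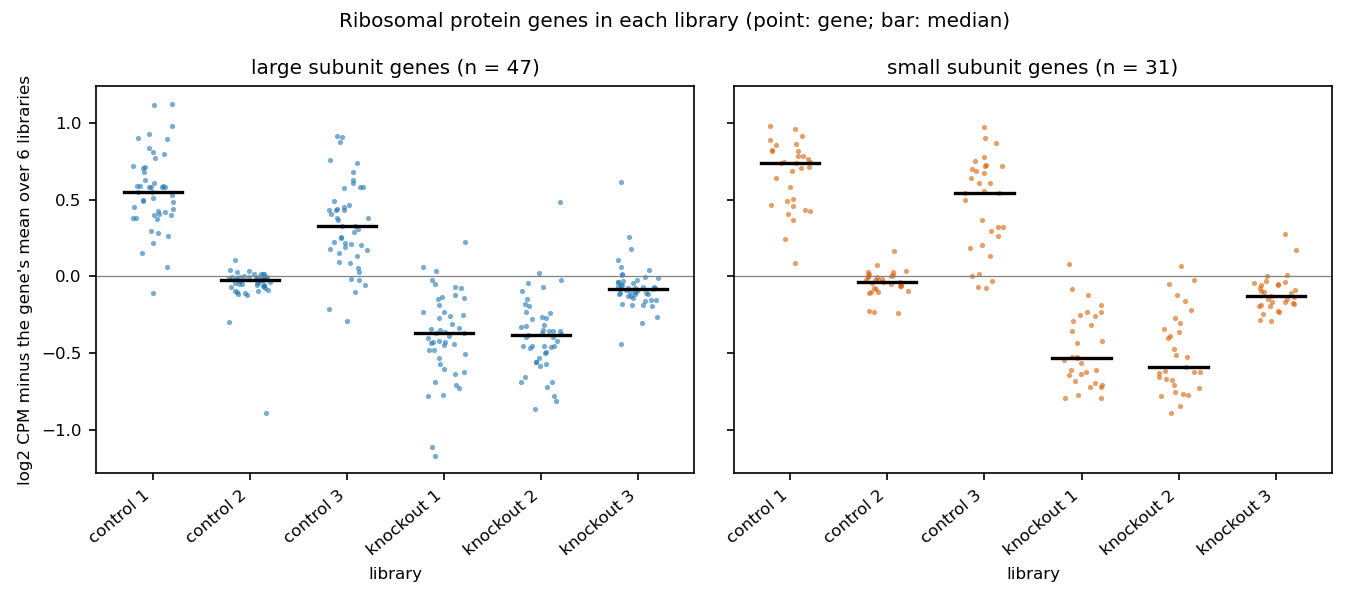
Each point is a tested ribosomal protein gene, placed by its log2 CPM in a library minus its own mean over the 6 libraries, for 47 large (left) and 31 small (right) subunit genes; bars mark medians. On both subunits control 2 lies under the other controls and knockout 3 above the other knockouts.

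The calls of single genes depended on which mice were in the comparison. The number called lower was 48 without control 2 and 42 without knockout 3. It was 7 without control 1, 7 without control 3, 2 without knockout 1 and 4 without knockout 2. The share of all tested genes called lower in those 6 fits was 16.9%, 17.4%, 12.7%, 10.9%, 10.8% and 11% in the same order, so in the 4 fits with few calls the members (2.56% to 8.97% called) were called no more often than genes at large. The fold change stayed below 0 in all 6 fits for 72 of the 78 genes. The genes called lower in all 6 were Rps13 and Rps27l, and Rps14 and Rpl17 were called in at least 5. Among other settings, 56 members were called lower with upper-quartile scaling (25.7% of all genes), 51 with DESeq2 (20.3%), 45 with scaling to total counts (19.6%) and 35 with sex as a term (17.4%). A filter of 1 CPM gave 42 (19.8%). A test against a fold of 1.5 called 1 member (4.46% of all genes), and an adjusted p under 0.01 called 2 (6.5%).

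**Figure D3:**
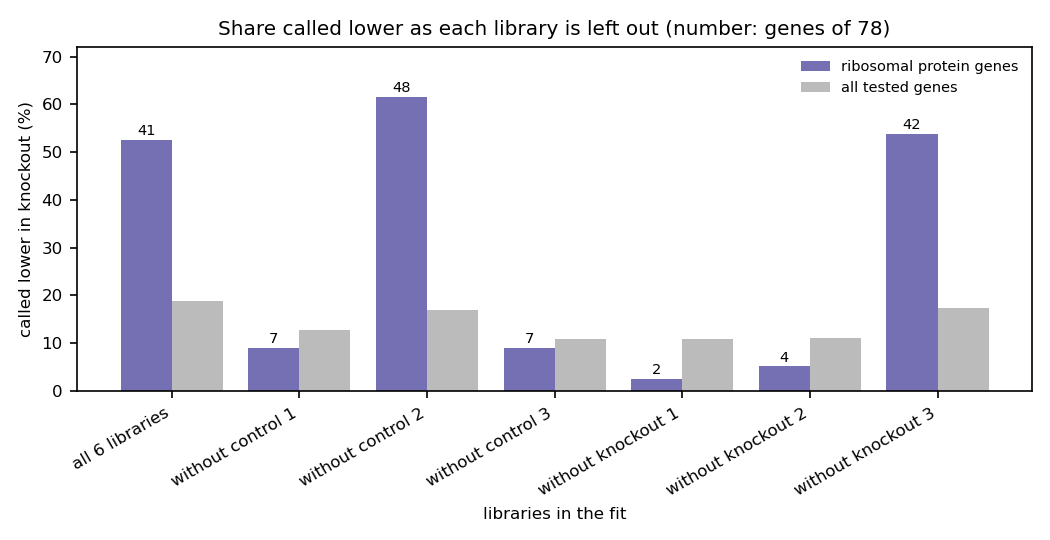
Percent of the 78 tested ribosomal protein genes (purple) and of all tested genes (grey) called lower in knockouts at an adjusted p under 0.05, with all 6 libraries and with each library left out; the numbers give the ribosomal protein genes called, from 2 without knockout 1 to 48 without control 2.

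The gene with the lowest fold change was Rps27l, which encodes a variant of the small subunit protein eS27. Rps27l was measured at 280, 162 and 302 CPM in controls 1 to 3 and 90.1, 83.1 and 130 CPM in knockouts 1 to 3. All 3 knockouts lay below all 3 controls. Its log2 fold change was -1.29 (SE 0.27, adjusted p = 0.0097). Rps13, whose protein uS15 binds the central part of the small subunit RNA, had the smallest adjusted p of the group at 0.00546 and a log2 fold change of -1.13 (SE 0.19). Rps13 took 56.2, 36.7 and 54.1 CPM in the controls against 19.9, 20.5 and 26.9 CPM in the knockouts, again with no overlap. Processed copies annotated as Rps13 pseudogenes held 87.1% of the counts of that family, and how reads were divided among them is not given in the sources used here.

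Rps14, whose gene is the one tied to the anaemia of the human 5q deletion, took 2202, 1142 and 1912 CPM in controls 1 to 3. In knockouts 1 to 3 it took 644, 683 and 913 CPM, each below the lowest control. Its log2 fold change was -1.23 (SE 0.28, adjusted p = 0.014). Rps24, a gene mutated in some Diamond-Blackfan anaemia, was the member with the highest level per transcript length at 3594 CPM per kilobase. Rps24 took 3237, 1624 and 3108 CPM in the controls against 964, 930 and 1456 CPM in the knockouts, with a log2 fold change of -1.25 (SE 0.32, adjusted p = 0.0203). Its highest knockout lay just under control 2. Rpl13a, whose protein can leave the ribosome to silence inflammatory messages, took 3854, 2221 and 4138 CPM in the controls. In the knockouts Rpl13a took 1289, 1255 and 1981 CPM, each below the lowest control, with a log2 fold change of -1.17 (SE 0.31, adjusted p = 0.0223). Rps23, whose protein lines the decoding centre, fell by 0.98 on the log2 scale (SE 0.23, adjusted p = 0.0157), and Rpl36 by 0.93 (SE 0.22, adjusted p = 0.0146). Pseudogenes held 78.6% of the Rps23 family's counts and 9.81% of those of Rpl36.

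The called genes with fold changes nearest 0 included 2 that report on ribosome assembly and growth signals. Rpl5, part of the particle with 5S RNA that binds Mdm2 when ribosome assembly fails, fell by 0.61 (SE 0.16, adjusted p = 0.0229), from 47.1 to 65.5 CPM among the controls to 33.8 to 44.6 CPM among the knockouts. Its partner Rpl11 had a log2 fold change of -0.47 (SE 0.16) and was not called (adjusted p = 0.0517). Rpl11 took 311, 216 and 265 CPM in the controls against 205, 171 and 195 CPM in the knockouts, so its groups did not overlap. Rps6, the S6 kinase substrate, fell by 0.56 (SE 0.16, adjusted p = 0.0269). Rps6 took 188 to 267 CPM in the controls against 143 to 172 CPM in the knockouts, with 77.7% of its family's counts at pseudogenes. Rpl10a fell by 0.56 (SE 0.16, adjusted p = 0.0315), Rpl13 by 0.56 (SE 0.18, adjusted p = 0.041) and Rpl27a by 0.57 (SE 0.18, adjusted p = 0.0431).

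The stalk, the lateral arm of the large subunit that recruits elongation factors, is formed by Rplp0, Rplp1 and Rplp2, and none of the 3 genes was called. Rplp0, the stalk base and the member with the highest mean CPM, took 5402, 3561 and 4521 CPM in the controls against 2795, 2737 and 3273 CPM in the knockouts. Its groups did not overlap, and its log2 fold change was -0.61 (SE 0.24, adjusted p = 0.0763). Rplp1 had a log2 fold change of -0.49 (SE 0.23, adjusted p = 0.135), with knockout 3 at 1538 CPM above control 2 at 1490 CPM. Rplp2 had a log2 fold change of -0.27 (SE 0.17, adjusted p = 0.243). Per transcript length Rplp1 stood at 3333, Rpl13a at 3186 and Rplp0 at 2735 CPM per kilobase, the highest levels after Rps24. Over the tested members this level ran from 17.8 to 3594 CPM per kilobase, with a median of 623.

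Rpsa, which encodes the small subunit protein uS2 and is also known as the laminin receptor gene, was not called. It took 1400, 974 and 1203 CPM in controls 1 to 3 and 816, 1006 and 956 CPM in knockouts 1 to 3, and the groups overlapped (log2 fold change -0.36, SE 0.20, adjusted p = 0.183). Rps27a, which makes a ribosomal protein fused to ubiquitin, fell by 0.95 (SE 0.26, adjusted p = 0.0238), from 475 to 804 CPM in the controls to 281 to 445 CPM in the knockouts.

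Several members were measured at nearly equal levels in both groups or scattered widely. Those that follow were chosen after their values were seen. Rpl4, a large subunit protein that lines the exit tunnel, took 2182, 2068 and 1949 CPM in the controls against 2143, 2128 and 2107 CPM in the knockouts (log2 fold change 0.04, SE 0.18, adjusted p = 0.873). Rps2 took 720, 641 and 644 CPM against 715, 666 and 680 CPM (0.04, SE 0.15, adjusted p = 0.853). Rpl23 took 1358, 1146 and 1178 CPM against 1275, 1167 and 1235 CPM (adjusted p = 0.994). In these 3 genes the groups overlapped throughout. Rpl29 had the highest fold change at 0.48 (SE 0.26, adjusted p = 0.176), and its knockouts split: 112 CPM in knockout 1 lay under all controls (127 to 145 CPM), while knockouts 2 and 3 held 218 and 239 CPM. Rpl29 was the only member called higher when knockout 1 was left out, a fit in which 10.5% of all genes were called higher. Rpl26, which binds the p53 message after DNA damage, was not called despite a log2 fold change of -0.85 (SE 0.53, adjusted p = 0.244). Its controls ranged from 257 CPM in control 2 to 1029 CPM in control 1 and its knockouts from 212 to 569 CPM.

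Promoter windows from RefSeq (GRCm38.p6, 250 bases before to 50 after each start) were found for 61 of the 81 genes, as 73 windows. The 6 lowest and 4 highest fold changes among the tested members with a window are printed here from 60 bases before the start, to set the genes that fell furthest beside those with the highest fold changes. Capitals mark 2 features: a run of C followed by at least 6 bases that are each C or T, beginning from 30 bases before the start onwards, as in a TOP message, and the ETS core CCGGAA on either strand. The start is the base after the first 60. Rps27l lies at chr9:66946026-66946105 on the plus strand, Rps24 at chr14:24490618-24490697 on the plus strand, and Rpl13a at chr7:45128726-45128805 on the minus strand. Rps13 lies at chr7:116334171-116334250, Rpl34 at chr3:130730379-130730458 and Rpl9 at chr5:65391412-65391491, each on the minus strand. Of the genes with the highest fold changes, Rps27 lies at chr3:90213629-90213708 and Rpl23 at chr11:97782420-97782499 on the minus strand, and Rpl4 at chr9:64173327-64173406 and Rps2 at chr17:24720003-24720082 on the plus strand. The place of Rps27 among these depended on read placement. Named copies held 99.5% of its family's counts, and with them added its log2 fold change was -1.06 (adjusted p = 0.0312).
Rps27l: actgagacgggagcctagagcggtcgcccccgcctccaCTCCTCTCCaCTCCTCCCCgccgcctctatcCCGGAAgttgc
Rps24: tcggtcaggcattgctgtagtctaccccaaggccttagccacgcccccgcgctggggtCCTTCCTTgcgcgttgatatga
Rpl13a: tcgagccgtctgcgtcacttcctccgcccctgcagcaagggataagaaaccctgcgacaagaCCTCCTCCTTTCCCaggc
Rps13: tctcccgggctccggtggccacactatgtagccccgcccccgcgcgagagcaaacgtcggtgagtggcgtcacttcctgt
Rpl34: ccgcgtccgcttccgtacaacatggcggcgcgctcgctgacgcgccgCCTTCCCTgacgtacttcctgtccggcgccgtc
Rpl9: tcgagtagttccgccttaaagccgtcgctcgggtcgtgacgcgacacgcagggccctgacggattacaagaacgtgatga
Rps27: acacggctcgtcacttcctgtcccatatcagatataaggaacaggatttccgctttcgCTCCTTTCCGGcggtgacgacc
Rpl23: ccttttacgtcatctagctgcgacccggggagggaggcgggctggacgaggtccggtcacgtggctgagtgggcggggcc
Rpl4: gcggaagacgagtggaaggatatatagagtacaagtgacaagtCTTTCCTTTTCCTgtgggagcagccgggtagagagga
Rps2: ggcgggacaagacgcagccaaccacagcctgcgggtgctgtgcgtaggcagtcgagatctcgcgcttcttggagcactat
Capitals occur in both sets, and both hold windows without any. A C within 30 bases of the start followed by at least 6 pyrimidines was present in 47 of the 73 member windows (64.4%) and in 28.3% of all 32851 RefSeq windows. CCGGAA on either strand was present in 34 member windows (46.6%), against 14.9% of all. The E-box CACGTG was present in 11% against 7.15%, TATAAA in 8.22% against 13.6%, and ATGGCG, the core letters of the YY1 motif, in 30.1% against 8.93%, each on either strand. The run can overlap the reverse strand of CCGGAA, as it does in Rps27. Of 42 tested members with a pyrimidine run 27 fell, at a median log2 fold change of -0.69, while of 16 without it 7 fell, with a median of -0.54. Of 32 members with CCGGAA 19 fell, and of 26 without it 15 fell, with medians of -0.67 and -0.64. These are letter matches in a window around annotated starts, described without a test.

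Genes named as variant or like forms of ribosomal protein genes were compared with their counterparts as shares of counts in each library. Whether the protein of each enters the ribosome was not tested. Rpl22l1, the variant of Rpl22, held 23.3%, 20.1% and 23% of the pair's counts in controls 1 to 3 and 14.1%, 14.2% and 16.7% in knockouts 1 to 3. Rpl22l1 fell by 1.35 on the log2 scale (SE 0.27, adjusted p = 0.00954) and Rpl22 by 0.65 (SE 0.22, adjusted p = 0.0464). Rpl36al held 58.8% ± 2.19 of its pair with Rpl36a in the controls and 53.6% ± 2.25 in the knockouts (SD, n = 3). Rpl36al fell by 0.72 (SE 0.19, adjusted p = 0.0215), while Rpl36a was not called (log2 fold change -0.43, SE 0.16, adjusted p = 0.0766). Rps27l held 97% ± 0.726 of the counts of Rps27l and Rps27 in the controls and 93.2% ± 1.39 in the knockouts. In each of these 3 pairs the groups did not overlap, and the 2-sided exact permutation test gave p = 0.1, the smallest that 3 against 3 allows (0.2 after adjustment over 6 pairs).

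The annotated Rps27 gene itself took only 5.79 to 9.3 CPM, since 99.5% of its family's counts stood at other copies. The retrotransposed copy Rps27rt took 2587, 1191 and 2022 CPM in the controls against 814, 811 and 1159 CPM in the knockouts (log2 fold change -1.06, SE 0.31, adjusted p = 0.0312). With Rps27rt counted beside Rps27, the share of Rps27l was 11.5% ± 1.65 in the controls against 9.72% ± 0.442 in the knockouts (exact permutation p = 0.3), so the non-overlap of that pair depended on where the reads of Rps27 were placed. Rpl7l1 held 5.17% ± 0.957 of its pair with Rpl7 in the controls and 5.8% ± 0.506 in the knockouts (exact permutation p = 0.6). Rpl7l1 fell by 0.34 (SE 0.11, adjusted p = 0.0476), whereas Rpl7 was not called at -0.54 (SE 0.22, adjusted p = 0.0825). Rpl3 (-0.49, SE 0.17, adjusted p = 0.0603), Rpl10 (-0.47, SE 0.19, adjusted p = 0.0906) and Rps4x (-0.28, SE 0.20, adjusted p = 0.314) were not called. Rpl39 fell by 0.89 (SE 0.27, adjusted p = 0.0344).

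The 3 members that were not tested are variants known from muscle or testis. Rpl10l had 0 counts in every library and Rpl3l had 0 or 1. Rpl39l had 0 to 4 counts in 5 libraries and 87 in control 3, where it made up 0.326% of the counts of Rpl39l and Rpl39. Rps4l, annotated as a transcribed pseudogene and so not a member, took 11.5 to 16.1 CPM in the controls against 8.2 to 14.8 CPM in the knockouts and was not called (log2 fold change -0.34, SE 0.24, adjusted p = 0.292). Of the 4 tested genes on the X chromosome, Rpl10, Rpl36a, Rpl39 and Rps4x, 1 was called (Rpl39).

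Processed copies limit how reads can be assigned to single members. The table held 266 genes named as pseudogenes of 57 members, and for 17 members these took over 50% of the family's counts. The copies went the same way: 95 were tested, 39 were called lower and 0 higher, with a median of -0.81. With their counts added to the parent gene, 44 of the 78 members were called lower (56.4%, against 18.8% of all genes in that fit), with a median of -0.66. Among the 42 tested members whose copies held under 1% of the counts, 19 were called lower (45.2%, against 18.8% of all genes) and the median was -0.63, as over the whole group.

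Differences among members were related to how much they varied among the controls. Over the 78 genes the log2 fold change and the SD of log2 CPM among the controls had a Spearman rho of -0.883 and a Pearson r of -0.759. The members share the 6 libraries, and the control values enter both measures. The fold change was nearly unrelated to transcript length within the group (rho = 0.104) and to GC content (rho = 0.0957). It was weakly lower for genes with a higher level per transcript length (rho = -0.244).

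With offsets for transcript length and GC content, the falls became smaller and fewer. In this fit 11 of the 78 members were called lower, 3 were called higher, and the median log2 fold change was -0.28, against 0.05 over all genes. The share called lower (14.1%) was near the 13.2% of all genes in the same fit. The 11 genes were Rpl13a, Rpl35, Rpl36, Rps13, Rps14, Rps15a, Rps16, Rps18, Rps19, Rps24 and Rps27l, all among the 41. Rps15a entered this fit with an annotated length of 5130 bases, and whether the cells used transcripts of that length was not tested. The small subunit gave 8 of them, with a median of -0.44 over 31 genes, and the large subunit 3, with a median of -0.18 over 47. The 3 called higher (3.85% of the members, against 17.6% of all genes in this fit) were Rpl23, Rpl23a and Rpl29, at 0.45, 0.63 and 0.82. The value for Rpl23a leaves out processed copies with 92.3% of its family's counts. In this fit Rps27l stood at -0.66 (adjusted p = 0.0147), Rps13 at -0.70 (adjusted p = 0.00948) and Rps14 at -0.83 (adjusted p = 0.0216). Members are short, with a median transcript of 764 bases against 2501 over all tested genes, and their order in the 2 fits was alike (rho = 0.96 over 78 genes).

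**Figure D4:**
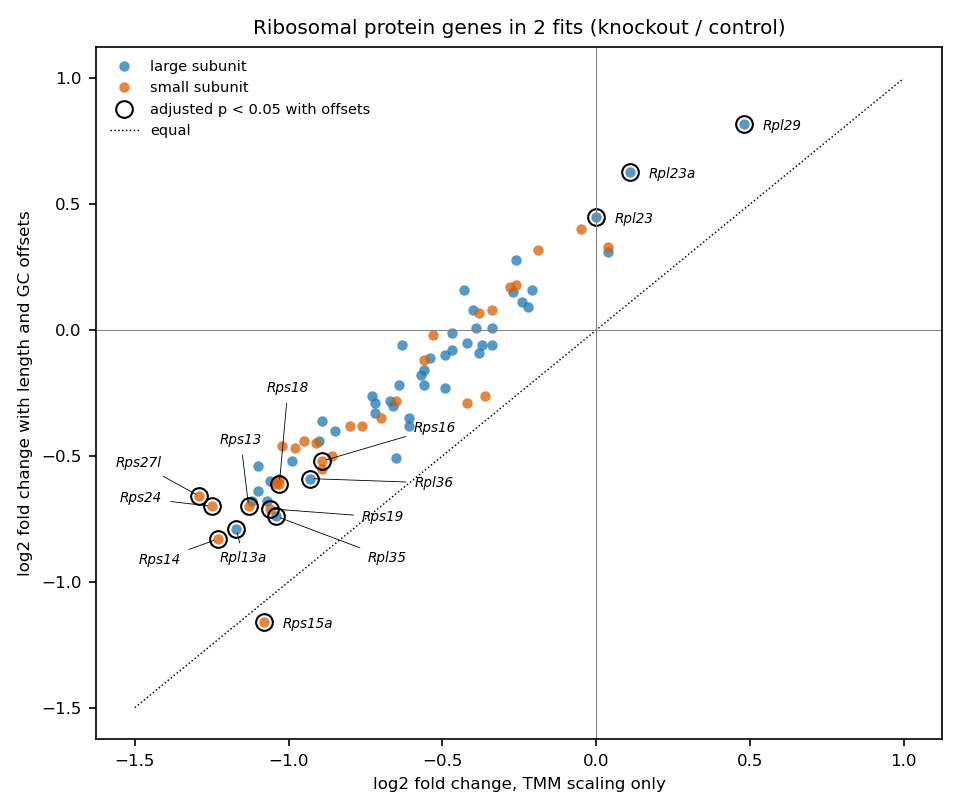
Log2 fold change of each of the 78 tested ribosomal protein genes without (x axis) and with (y axis) offsets for transcript length and GC content; the dotted line marks equal values and circles mark an adjusted p under 0.05 with offsets. All points but Rps15a lie above the line, with 11 circled genes below 0 and 3 above.

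Ribosomal proteins and partners with other symbols followed the group in part. Fau, Rack1, Rpl22l1 and Rpl7l1 fell, and Rps3a1 was not called. With length and GC offsets Rpl22l1 was still called (adjusted p = 0.018), while Fau (0.0576), Rack1 (0.0993) and Rpl7l1 (0.15) were not. Rack1 and Rpl7l1 were near the threshold: neither was called with DESeq2 size factors, Rpl7l1 lost its call whichever of the 6 libraries was left out, and Rack1 lost it without control 1, control 3, knockout 1 or knockout 2. Rack1, the scaffold protein at the head of the small subunit, took 3189, 1994 and 2879 CPM in the controls against 1342, 1406 and 1948 CPM in the knockouts (log2 fold change -0.78, SE 0.26, adjusted p = 0.0474). Its highest knockout lay just under control 2. Fau, which makes the small subunit protein eS30, fell by 0.66 (SE 0.15, adjusted p = 0.0136). Rps3a1 had a log2 fold change of -0.56 (SE 0.21, adjusted p = 0.0723).

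Genes that build or drive the ribosome were called in both directions, at shares near or below those of all tested genes. Over all tested genes 17.4% rose and 18.8% fell. The shares that rose and fell were 10.3% and 7.69% for small subunit assembly and 15% and 5% for large subunit assembly. For RNA polymerase I they were 13.3% and 20%. Of 39 small subunit assembly factors 4 rose (Nol6, Bms1, Bysl and Nop14) and 3 fell (Emg1, Dimt1 and Nop10), with a median of 0.07. Emg1, an RNA methyltransferase, fell by 0.88 (SE 0.18, adjusted p = 0.00854) and the dimethylase Dimt1 by 0.65 (SE 0.15, adjusted p = 0.0141). Of 40 large subunit assembly factors 6 rose and 2 fell (Rpf2 and Nip7), with a median of 0.15. Las1l, which cuts the spacer of the precursor RNA, rose by 0.64 (SE 0.11, adjusted p = 0.00563), and Rpf2, which brings in the 5S particle, fell by 0.91 (SE 0.17, adjusted p = 0.00752). Of 15 genes of RNA polymerase I and its factors 2 rose (Cd3eap and Rrn3) and 3 fell (Taf1b, Polr1c and Znrd1), with a median of 0.09. Its subunit gene Cd3eap rose by 0.68 (SE 0.14, adjusted p = 0.00851), and Taf1b, of the promoter selectivity factor, fell by 0.73 (SE 0.13, adjusted p = 0.00537).

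Translation factors were called in both directions. Of 14 elongation factors and other genes with TOP messages 2 rose (Pabpc1 and Eif4b) and 2 fell (Eif3e and Eif3h), with a median of -0.18. Of 35 initiation factors, some of which are on both lists, 8 rose and 3 fell (Eif3e, Eif3h and Eif3m), with a median of 0.12. In the first list 14.3% rose and 14.3% fell, and in the second 22.9% and 8.57%. Over all tested genes these shares were 17.4% and 18.8%. Eif3e and Eif3h, subunits of the factor eIF3, fell by 0.70 (SE 0.18, adjusted p = 0.0199) and 0.75 (SE 0.19, adjusted p = 0.0201). With length and GC offsets neither was called (adjusted p = 0.26 and 0.0537). The scaffold Eif4g1 rose by 0.87 (SE 0.18, adjusted p = 0.00976), from 248, 321 and 283 CPM in the controls to 613, 511 and 433 CPM in the knockouts. Eif2b4 rose by 0.52 (SE 0.10, adjusted p = 0.00818).

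Of 25 tested genes of the mTORC1 and Myc systems 13 rose (52%, against 17.4% of all tested genes) and 1 fell, with a median of 0.33. Among coding genes of 2000 bases or more 24.2% rose. Eif4ebp2, an inhibitor of cap-dependent initiation that mTORC1 switches off, rose by 0.86 (SE 0.14, adjusted p = 0.00427). Mxi1, an antagonist of Myc, rose by 0.73 (SE 0.12, adjusted p = 0.00446). Mtor, Rptor and Max rose as well, by 0.51, 0.57 and 0.62 (adjusted p = 0.0215, 0.0128 and 0.00536). Larp1, which binds TOP messages, took 111, 122 and 108 CPM in the controls against 187, 188 and 165 CPM in the knockouts, with no overlap (log2 fold change 0.66, SE 0.11, adjusted p = 0.0051). Myc was not called: it took 146, 116 and 89.8 CPM in the controls against 97.4, 148 and 133 CPM in the knockouts (log2 fold change 0.11, SE 0.21, adjusted p = 0.709). The single fall was Mycn, at 0.464 CPM in the knockouts against 2.67 CPM. With length and GC offsets Mtor, Rptor, Tsc2 and Sesn2 lost the call (adjusted p = 0.0718, 0.0907, 0.644 and 0.0581). The other genes that rose kept it, and Rps6kb1 and Rragc gained it (adjusted p = 0.0478 and 0.0167). These are message levels, and the activity of the kinase was not measured.

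Genes of other multi-protein complexes were called lower as well, against 18.8% of all tested genes. The shares were 56% for the mitochondrial ribosome, 83.6% for the respiratory chain and 48.6% for the proteasome. Of 75 tested genes for the mitochondrial ribosome 42 fell and 0 rose, with a median of -0.48. Of 73 tested nuclear genes of the respiratory chain 61 fell and 0 rose, with a median of -0.73. Of 37 tested proteasome subunit genes 18 fell and 3 rose (Psmd11, Psmd2 and Psmd3), with a median of -0.40. Median transcripts were 1226, 732 and 1410 bases in these groups and 2738 and 2523 bases among the small and large subunit assembly factors. With the offsets 24 mitochondrial ribosome, 29 respiratory chain and 5 proteasome genes were called lower, with medians of -0.22, -0.32 and -0.08. In that fit 13.2% of all genes were called lower, and the 5 of 37 proteasome genes were near that share. Of 13 genes encoded in the mitochondrial genome 10 fell, with a median of -1.07, and 0 of the 13 were called with the offsets.

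**Figure D5:**
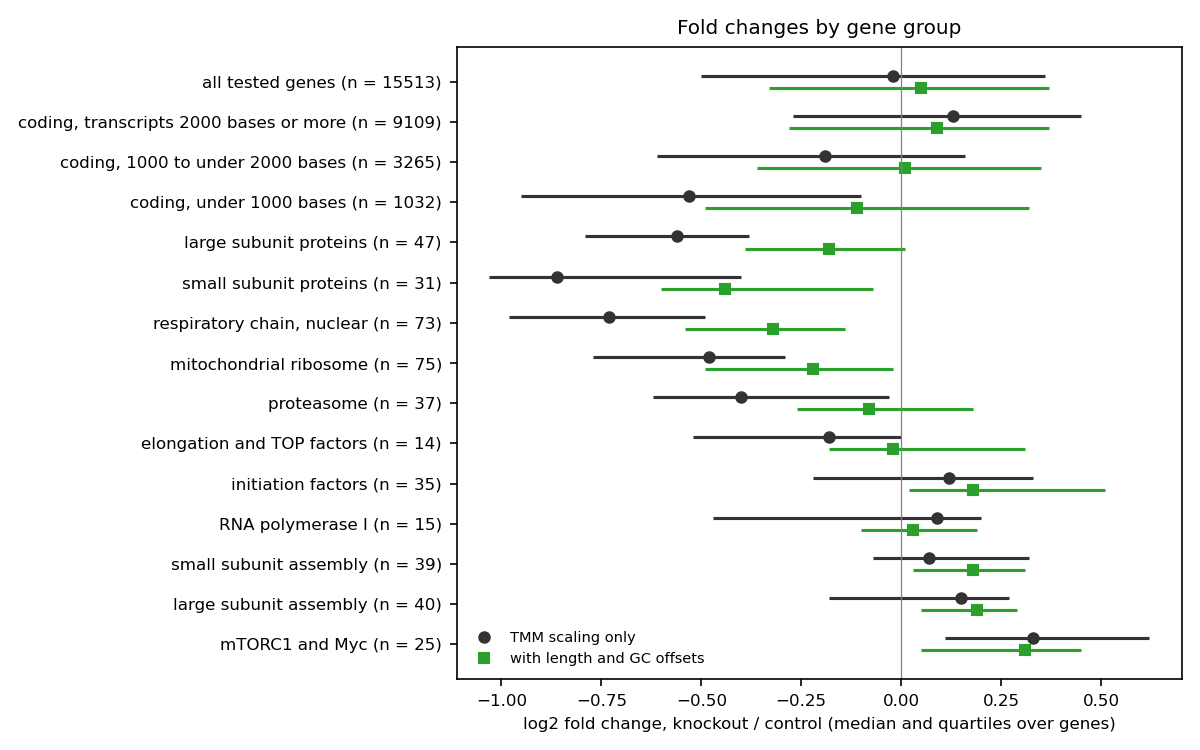
Median (symbol) and quartiles (line) of the log2 fold change over the genes of each group, without (circles) and with (squares) offsets for transcript length and GC content; n is the number of tested genes, and the length classes leave out the ribosomal protein genes. Without offsets the large subunit median (-0.56) lies near that of coding genes under 1000 bases (-0.53). The small subunit median (-0.86) lies below it and below that of the respiratory chain (-0.73). Both subunits lie away from the assembly factors.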

How the data were processed

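The authors deposited whole-number counts per gene, with 1 column for each of 6 libraries and Ensembl identifiers. The submitters' processing notes name the build GRCm38 and the tools featureCounts 1.4.6, TopHat 1.3.3 and Cuffdiff 1.3.0. Annotation release, strand setting and treatment of multi-mapped reads are not given in the sources used here, so counts are uncertain between near-identical, overlapping or antisense genes.

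Symbols from GENCODE M21 were found for 44671 of 45513 identifiers (98.1%). The 842 others were kept and held 0.0517% to 0.118% of a library's counts. The counts were analysed with edgeR 4.0.16 under R 4.3.3 (TMM factors, filterByExpr by group, robust quasi-likelihood fit, group as the only term). A gene was called at an adjusted p under 0.05. Each SE was computed as the absolute log2 fold change divided by the square root of the test's F statistic. On simulated counts with 200 changed genes among 15301, this fit recovered 74% of genes changed by a log2 of 1 and 100% of those changed by 2, and 8.9% of its calls were false. Transcript length is the median over a gene's basic GENCODE transcripts, and 99.5% of tested genes had a length and GC value. Single shares were compared by an exact permutation test. Promoters came from RefSeq GRCm38.p6, and promoters of the 20 other members (among them Rps14, Rpl36, Rplp1 and Rpl29) were not used here.

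The labels name separate mice, so p-values measure the spread between mice. The members and gene lists were chosen with earlier results of these data known. Genes were named by rule: the 5 lowest and 5 highest fold changes among called members, the 5 smallest p, the 4 highest levels per transcript length, variant forms and their counterparts, the stalk genes, Rps27a, Rpsa, Rpl5, Rpl11 and Rps6, and of each other list the 2 called genes with the smallest p, with Myc and Larp1. Any other gene named was picked with its values in view, and 1 gene the rule covers is not reported here. Alternatives tried comprised other scalings, filters and thresholds, the tests of DESeq2 1.42.0 and limma 3.58.1 (voom), terms for replicate number and sex, length and GC offsets, each library left out, medians in place of sums, and shares per transcript length. Chosen after seeing the data were adding pseudogene counts to the parent, keeping members with few pseudogene counts, and counting Rps27rt with Rps27. Sex was read from Xist and Y-linked genes.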

Additional observations from a re-analysis of the deposited data

How the results depend on the processing

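The cytosolic ribosomal protein genes called lower numbered between 35 and 56 under the other scalings, filters and tests, the replicate block, the sex term and the summing of pseudogene counts. Exceptions were 11 lower and 3 higher with length and GC offsets (median -0.28), 1 lower against a fold of 1.5, 2 lower at an adjusted p under 0.01, 19 lower among the members with few pseudogene counts (fewer genes counted), and 2 to 48 lower with 0 to 1 higher as single libraries were left out. The log2 difference of large to small subunit turned to -0.03 with medians over genes. Upper-quartile factors moved the median of all genes from -0.02 to -0.17 and gave 1756 higher and 3988 lower calls (against 2693 and 2919). With them the members' median was -0.78 and 56 were lower, while the elongation list had 0 higher and 4 lower, initiation 4 and 5, polymerase I 1 and 5, small assembly 1 higher, large assembly 3 and 6, mTORC1 and Myc 5 lower, and proteasome 1 higher. Scaling to total counts gave 1 elongation, 5 initiation and 1 small assembly gene higher. TMM without ribosomal and mitochondrial genes gave 1 large assembly gene lower. DESeq2 gave 5 elongation genes lower, 8 small assembly genes higher and 2 mTORC1 and Myc genes lower, and the filter of 1 CPM gave 2 of the last lower. The replicate block gave 0 elongation, 5 initiation, 1 polymerase I and 2 small assembly genes higher and 5 initiation genes lower, with 39 ribosomal protein genes lower. Same-numbered libraries correlated at -0.114, -0.0979 and 0.419, so the third pair varied together and the other pairs did not, and not every library correlated best with its own number. The sex term gave 0 elongation genes higher, 1 large assembly gene and 10 proteasome genes lower. Offsets gave 0 elongation, 0 initiation, 1 polymerase I, 1 small assembly, 1 large assembly, 24 mitochondrial ribosome, 5 proteasome and 29 respiratory chain genes lower, and 1 respiratory chain gene higher. Against a fold of 1.5, 0 genes were higher in each of these lists and 0 lower in elongation, initiation, polymerase I and both assembly lists, with 4 mitochondrial ribosome, 2 proteasome and 3 respiratory chain genes lower. At an adjusted p under 0.01, 0 elongation, 2 initiation, 1 polymerase I, 0 small assembly, 1 large assembly, 8 mTORC1 and Myc and 0 proteasome genes were higher. At that threshold 0 elongation, 0 initiation, 1 polymerase I, 1 small assembly, 1 large assembly, 15 mitochondrial ribosome, 4 proteasome and 16 respiratory chain genes were lower. Leaving out 1 library gave these ranges, higher first and lower after: elongation 0 to 2 and 0 to 4, initiation 4 to 8 and 0 to 5, polymerase I 1 to 3 and 1 to 4, small assembly 0 to 5 and 1 to 3, large assembly 2 to 6 and 1 to 3, mTORC1 and Myc 9 to 12 and 1 to 2, proteasome 0 to 3 and 4 to 20. Mitochondrial ribosome genes lower ranged from 20 to 48 and respiratory chain genes lower from 32 to 59. The cause of these shifts was not tested. Among single named genes no called value changed sign. Of those not called, the offsets turned Rpl36a to 0.16, Rplp2 to 0.15, Rps4x to 0.17 and Rps27 to 0.40. As single libraries were left out Rps27 ranged from -0.16 (without control 2) to 0.14 (without control 1), and Myc from -0.05 (without control 3) to 0.30 (without control 1). Upper-quartile factors turned Myc to -0.04. Of the other alternative values, 154 lost the call, 23 gained it and 822 kept direction and side of the threshold. The limits of the data are 3 mice a group, a sex ratio that differs between the groups, unknown placement of reads from gene copies, and marker genes of other cell types that moved with the groups.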
